A study of Homo sapiens with 6 samples.

Results

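Transcript levels of 9 genes for immune-regulatory surface proteins and galectin-9 were measured in PC3 cells that had been sorted by their NRP2 level. The genes were chosen by name as the remaining B7 family ligands (CD276, VTCN1, CD80, ICOSLG, VSIR, HHLA2), the "do not eat me" protein gene CD47, the galectin gene LGALS9 and the ectonucleotidase gene NT5E, which encodes CD73. Of the 9 names, 8 matched a gene among the 27958 of the TPM table (a share of transcripts corrected for gene length), and the VTCN1 transcript was not analysed here. PC3 is a human prostate cancer line established from a bone metastasis, and NRP2 (neuropilin-2) is a co-receptor for VEGF family growth factors and semaphorins. The tested cells, NRP2-high, and their counterparts, NRP2-low, gave 3 libraries each, from parental PC3 cells that were stained with an NRP2 antibody, sorted and then grown for up to 2 weeks. No allele, transgene or drug was recorded for either group, and RNA came from different passages. The libraries are named by the numbers of their columns, S38, S39 and S40 for NRP2-high and S35, S36 and S37 for NRP2-low.

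B7 proteins are immunoglobulin-family ligands that meet receptors of the CD28 family and other receptors on T cells. CD80 and ICOSLG can deliver costimulation, whereas CD276 (B7-H3), VTCN1 (B7-H4), VSIR (VISTA) and HHLA2 (B7-H7) are studied mainly for inhibitory effects. CD47 binds SIRPA on macrophages and restrains phagocytosis, galectin-9 is a secreted lectin that binds HAVCR2 (TIM-3) among other glycoproteins, and CD73 converts extracellular AMP to adenosine, which dampens T cells through adenosine receptors. CD276 and NT5E are known as surface targets in prostate tumours.

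NRP2-high libraries held 21673710 to 23130636 reads and NRP2-low libraries 17551302 to 30726744. Mitochondrially encoded genes took 11.1% to 18.7% of TPM in NRP2-high libraries and 14.3% (S35), 15.1% (S36) and 31.0% (S37) in NRP2-low libraries, so S37 stood apart. NRP2 itself had 48.1 TPM (S38), 42.5 TPM (S39) and 16.6 TPM (S40) in NRP2-high, against 2.71 to 7.55 TPM in NRP2-low libraries. Its call (limma adjusted p = 0.0375) was lost without S38, S39, S36 or S37 (up to 0.160), as well as with no filter (0.175), no variance trend (0.0502) or a pseudocount of 0.1 (0.0565). As a check of the label, the keratin genes KRT18 (342 to 585 TPM) and KRT8 (62.9 to 174 TPM) were well expressed over the 6 libraries. The epithelial genes EPCAM and KRT19 had 1 read and 2 reads in all, and these values stand beside the PC3 label. Of 14 leukocyte markers 0 passed the filter, with summed TPM of 0.136 to 1.06 in NRP2-high and 0.888 to 1.94 in NRP2-low libraries. Of 9 endothelial and fibroblast markers 0 passed, with sums of 0.661 to 3.04 in NRP2-high and 0.0729 to 0.478 in NRP2-low libraries, and the part of either in the results was not tested.

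The members fell into 2 tiers. NT5E, CD47 and CD276 were above 1 TPM in all 6 libraries, and VSIR, ICOSLG, LGALS9, CD80 and HHLA2 were below 1 TPM in all 6. The order of mean TPM over all libraries was NT5E (176), CD47 (34.9), CD276 (25.9), VSIR (0.286), ICOSLG (0.0648), LGALS9 (0.00998), CD80 (0.00952) and HHLA2 (0.00748). NT5E lay above CD47 and CD47 above CD276 within each of the 6 libraries. The last 3 rested on 1 or 2 reads each and cannot be ordered.

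Promoters of 4 members are shown because they span both tiers. CD47 and HHLA2 are neighbours on chromosome 3 (CD47 at 108043094 to 108091862, minus strand; HHLA2 at 108296490 to 108378280, plus strand), 205 kb apart with 2 annotated genes between them. One of these, the ciliary transport gene IFT57, was at 25.6 to 39.6 TPM. The other, LINC01215, has no TPM value here. HHLA2 therefore lies near the expressed genes CD47 and IFT57, with 1 read of its own. NT5E has the highest level of the members, and VSIR has a promoter rich in CG with few reads. The windows are those of RefSeq on GRCh38.p14, from 250 bases before to 50 bases after the start of the gene, 5′ to 3′ on the gene's strand, with each CG dinucleotide in capitals. The start is that of RefSeq, which differs from the start of the TPM table: the CD47 and NT5E windows lie inside the genes as the table gives them.
CD47, chr3:108090982-108091281, minus strand: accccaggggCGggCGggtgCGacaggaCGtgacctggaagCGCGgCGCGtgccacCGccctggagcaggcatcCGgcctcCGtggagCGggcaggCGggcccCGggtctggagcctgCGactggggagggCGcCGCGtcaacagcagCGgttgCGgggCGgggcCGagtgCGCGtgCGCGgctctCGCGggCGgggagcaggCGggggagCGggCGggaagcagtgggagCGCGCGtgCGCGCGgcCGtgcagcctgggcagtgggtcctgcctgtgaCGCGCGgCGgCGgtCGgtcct
HHLA2, first of 3 windows, chr3:108296298-108296597, plus strand: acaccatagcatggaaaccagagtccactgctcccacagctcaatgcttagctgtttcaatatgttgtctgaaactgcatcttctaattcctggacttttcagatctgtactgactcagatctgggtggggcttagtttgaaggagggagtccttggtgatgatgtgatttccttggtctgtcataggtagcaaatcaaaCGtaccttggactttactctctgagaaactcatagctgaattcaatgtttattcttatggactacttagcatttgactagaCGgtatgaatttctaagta
NT5E, chr6:85449833-85450132, plus strand: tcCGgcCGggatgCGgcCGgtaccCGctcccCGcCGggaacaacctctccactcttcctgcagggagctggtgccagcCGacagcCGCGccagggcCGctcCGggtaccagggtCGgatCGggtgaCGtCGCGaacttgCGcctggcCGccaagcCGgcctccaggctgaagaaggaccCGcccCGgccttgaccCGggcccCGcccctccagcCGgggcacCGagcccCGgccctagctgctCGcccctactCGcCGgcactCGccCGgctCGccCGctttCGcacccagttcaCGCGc
VSIR, chr10:71773471-71773770, minus strand: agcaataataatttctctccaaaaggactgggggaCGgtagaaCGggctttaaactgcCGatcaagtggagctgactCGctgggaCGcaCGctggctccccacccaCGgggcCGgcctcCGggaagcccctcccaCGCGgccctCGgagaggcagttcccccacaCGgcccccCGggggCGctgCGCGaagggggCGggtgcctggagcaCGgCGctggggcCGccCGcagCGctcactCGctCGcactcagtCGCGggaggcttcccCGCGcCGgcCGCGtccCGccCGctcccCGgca

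CG, which reads the same on both strands, occurred 45 times in the CD47 window and 2 times in that of HHLA2. NT5E and CD276 (first of 2 windows) had 37 each, ICOSLG 42, VSIR 35, CD80 and VTCN1 7 each and LGALS9 2. Over one window for each of 27305 genes the median was 14, and 3.39% of windows held at least 45. Among protein coding genes of the table with a window, a mean of at least 1 TPM was reached by 84.8% of 8996 genes with 15 or more CG, 51.1% of 1706 genes with 5 to 14 and 32.9% of 1059 genes with 0 to 4. The 3 expressed members all had CG-rich windows, and so did VSIR and ICOSLG, which were below 1 TPM. These counts describe the letters in the windows and were not tested against levels.

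**Figure D1:**
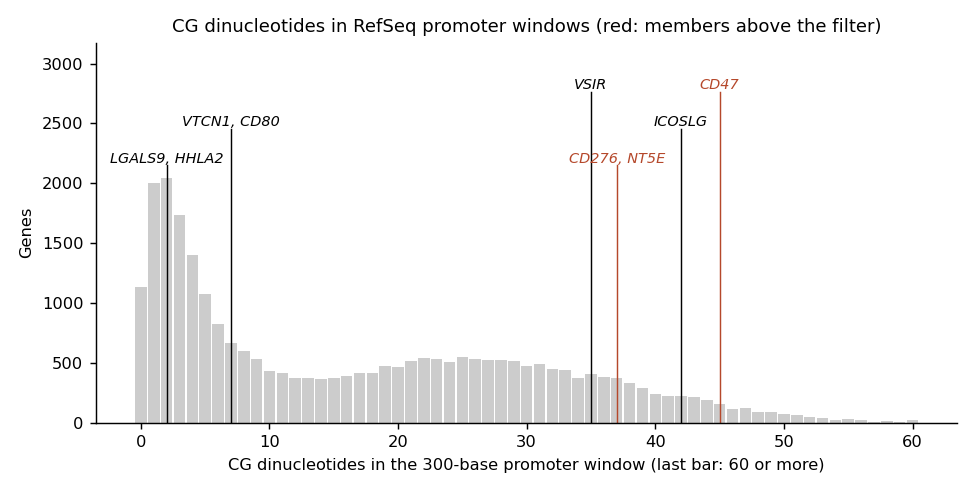
Number of CG dinucleotides in the 300-base RefSeq promoter window (x axis) against the number of genes (y axis, grey bars, 27305 genes). Lines mark the members: CD47 (45), NT5E and CD276 (37 each) are above the filter and drawn in red, ICOSLG (42) and VSIR (35) lie among them, and CD80, VTCN1, LGALS9 and HHLA2 lie at 7 or below.

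None of the 3 tested members differed between the groups beyond the spread of the libraries. They were compared by limma on log2(TPM + 1) over 15214 genes, of which 0.835% passed an adjusted p of 0.05 (127 genes, 53 higher and 74 lower in NRP2-high cells). Of the 3 members 0 passed, and 0 had an unadjusted p under 0.05. By limma-voom on whole reads 0 of the 3 passed as well, with 200 genes called in all. The median log2 fold change was 0.17 for the 3 members and 0.098 for all tested genes. The groups overlapped for each of the 8 members, the 3 tested ones included. Over all tested genes the groups did not overlap for 12.0%, and 3 members are too few to be told apart from that share. In bulk RNA, fewer cells with a transcript and less of it per cell cannot be told apart.

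NT5E (ENSG00000135318.11, GRCh38, chromosome 6, 85449584 to 85495791, plus strand) was the most abundant member and exceeded 94.4% of tested genes in mean TPM. Among NRP2-high libraries S38 had 235 TPM, S39 194 TPM and S40 72.5 TPM, and among NRP2-low libraries S35 had 221 TPM, S36 195 TPM and S37 137 TPM. The groups overlapped, with the highest and the lowest value both in NRP2-high and S40 far below the other NRP2-high libraries. The means were 167 ± 84.5 TPM in NRP2-high, against 184 ± 42.9 TPM in NRP2-low cells (SD, n = 3 each). On the log2 scale the difference was -0.27 (SE 0.41) with a limma adjusted p of 0.918 and a 95% interval of 0.435-fold to 1.57-fold. Without S40 its sign turned, to 0.24 (SE 0.24, limma adjusted p = 0.720). With mitochondrially encoded genes taken out of the total, S40 was still lowest at 89.2 TPM, against 198 to 264 TPM in the other 5 libraries.

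CD47 (ENSG00000196776.15, chromosome 3) varied least. Its level was 39.8 TPM in S38, 40.9 TPM in S39 and 30.5 TPM in S40 of NRP2-high, and 35.4 TPM in S35, 33.2 TPM in S36 and 29.7 TPM in S37 of NRP2-low. S38 and S39 lay above every NRP2-low library, and S40 lay within their range. The means were 37.1 ± 5.70 TPM in NRP2-high, against 32.7 ± 2.86 TPM in NRP2-low cells (SD, n = 3 each). On the log2 scale the difference was 0.17 (SE 0.18) with a limma adjusted p of 0.895 and a 95% interval of 0.848-fold to 1.48-fold, the narrowest of the 3. With mitochondrial genes taken out the means came to 43.7 ± 5.67 TPM in NRP2-high, against 41.1 ± 1.99 TPM in NRP2-low cells (SD, n = 3 each), and S37 moved to 43.0 TPM, the highest of its group.

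CD276 (ENSG00000103855.17, chromosome 15, 73683966 to 73714053, plus strand) was the most abundant B7 ligand among the members. NRP2-high libraries had 29.4 TPM (S38), 30.1 TPM (S39) and 22.3 TPM (S40), and NRP2-low libraries had 27.3 TPM (S35), 30.6 TPM (S36) and 15.6 TPM (S37). The groups overlapped, with S36 highest and S37 lowest of all. The means were 27.3 ± 4.36 TPM in NRP2-high, against 24.5 ± 7.87 TPM in NRP2-low cells (SD, n = 3 each). On the log2 scale the difference was 0.19 (SE 0.26) with a limma adjusted p of 0.913 and a 95% interval of 0.753-fold to 1.73-fold. Without S37, the library with the mitochondrial share of 31.0%, its sign turned, to -0.093 (SE 0.17, limma adjusted p = 0.991). With mitochondrial genes taken out CD276 had 27.4 to 35.9 TPM in NRP2-high, against 22.6 to 36.0 TPM in NRP2-low libraries, so S37 was still lowest.

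**Figure D2:**
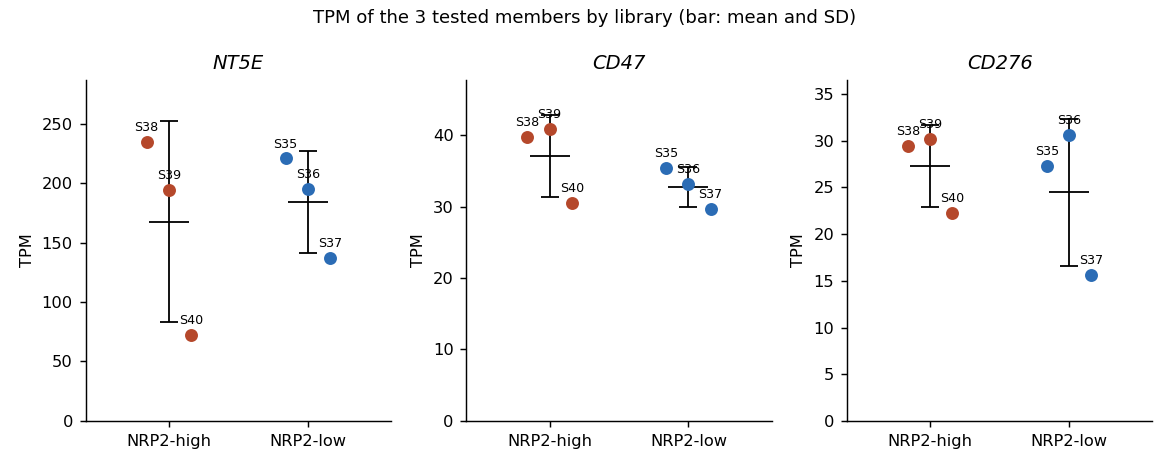
TPM (y axis, from 0) of NT5E, CD47 and CD276 in each NRP2-high and NRP2-low library (points, named by library), with the mean and SD of each group in black. The groups overlap for all 3 genes, NT5E is lowest in S40 at 72.5 TPM and CD276 is lowest in S37 at 15.6 TPM.

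In a ratio between members within a library the TPM total cancels, so taking out mitochondrially encoded genes does not change it. Other differences between libraries can remain in it. CD47 over CD276 was 1.35 (S38), 1.36 (S39) and 1.37 (S40) in NRP2-high cells, and 1.30 (S35), 1.08 (S36) and 1.90 (S37) in NRP2-low cells. The ratio was nearly the same in the NRP2-high libraries and spread wider in NRP2-low, with means of 1.36 ± 0.00994 in NRP2-high and 1.43 ± 0.424 in NRP2-low cells (SD, n = 3 each). Its highest value was that of S37, the library with the mitochondrial share of 31.0%, and the cause was not tested. NT5E over CD47 was 5.90, 4.76 and 2.38 in NRP2-high and 6.24, 5.88 and 4.61 in NRP2-low libraries. NT5E over CD276 was 7.99, 6.45 and 3.26 in NRP2-high and 8.09, 6.37 and 8.77 in NRP2-low libraries, so S40 had the lowest value of both NT5E ratios. No difference in the 3 log2 ratios passed a two-sided exact permutation test (p = 0.5 for NT5E over CD47, 0.4 for NT5E over CD276 and 1 for CD47 over CD276, adjusted 0.75, 0.75 and 1), a test that cannot go below 0.1 with 3 against 3.

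**Figure D3:**
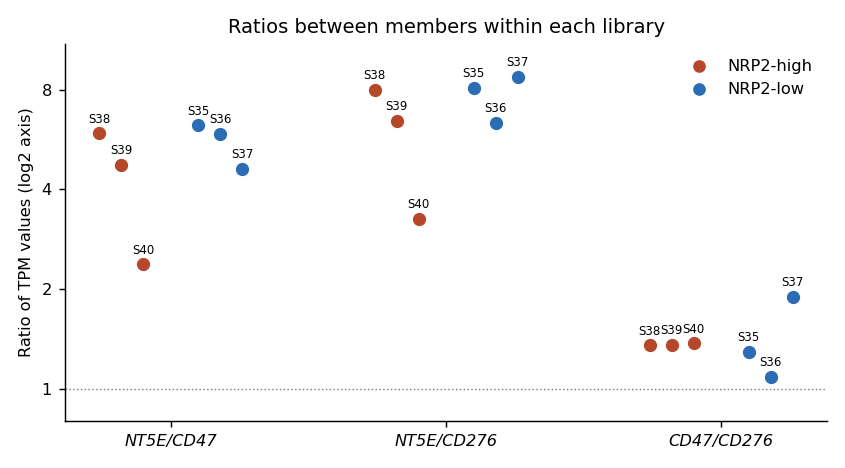
Ratio of the TPM values of 2 members within each library (y axis, log2 scale), NRP2-high left of NRP2-low for each ratio, points named by library. All 18 ratios lie above 1, and the 3 NRP2-high values of CD47 over CD276 (1.35 to 1.37) lie close together.

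The genes whose library-to-library pattern was nearest to each expressed member were found among 8195 other protein coding genes with a mean of at least 10 TPM, by the root mean square distance of log2(TPM + 1) after removal of each gene's mean, over 6 libraries. For CD276 these were TBC1D4 (0.0236) and CAND1 (0.0279), against a median distance of 0.257 over all candidates. For CD47 they were GBA2 (0.0355) and ARPC1A (0.0375), against a median of 0.232. For NT5E they were PLAUR, the urokinase receptor gene (0.170), and PIK3CD (0.184), against 0.572. PLAUR had 16.6 to 42.2 TPM in NRP2-high, against 30.2 to 47.3 TPM in NRP2-low libraries.

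The members below 1 TPM were too low for the test and are given as reads. VSIR (ENSG00000107738.19, chromosome 10, 71747559 to 71773498, minus strand) had 2 reads in S38, 5 in S39 and 8 in S40 of NRP2-high, and 23 in S35, 15 in S36 and 4 in S37 of NRP2-low. Corrected for depth this is 0.0713 TPM, 0.177 TPM and 0.254 TPM in the NRP2-high libraries, and 0.574 TPM, 0.501 TPM and 0.140 TPM in the NRP2-low libraries. S35 and S36 were above every NRP2-high library, and S37 was within their range. Pooled, this is 15 of 67201346 reads in NRP2-high cells, or 0.223 RPM after scaling to depth (95% exact Poisson interval 0.125 to 0.368), and 42 of 71415752 reads in NRP2-low cells, or 0.588 RPM (0.424 to 0.795), intervals that cover counting error only. Over libraries the mean was 0.168 ± 0.0916 TPM in NRP2-high, against 0.405 ± 0.232 TPM in NRP2-low cells (SD, n = 3 each, two-sided exact permutation p = 0.3). VSIR lies inside the cadherin gene CDH23, which runs on the other strand, but the exons of GENCODE release 29 share 0 bases.

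ICOSLG (ENSG00000160223.17, chromosome 21, 44217014 to 44240840, minus strand) had 1 read in S38, 0 in S39 and 2 in S40 of NRP2-high, and 15 in S35, 6 in S36 and 1 in S37 of NRP2-low. As with VSIR, S35 and S36 were above every NRP2-high library and S37 was not. Pooled, this is 0.0446 RPM in NRP2-high cells (95% exact Poisson interval 0.00921 to 0.130) and 0.308 RPM in NRP2-low cells (0.193 to 0.466). These intervals also cover counting error only, not the spread between libraries. Over libraries the mean was 0.0181 ± 0.0175 TPM in NRP2-high, against 0.112 ± 0.0931 TPM in NRP2-low cells (SD, n = 3 each, two-sided exact permutation p = 0.3). For these 2 tests the adjusted p was also 0.3, and 0.1 is the smallest that 3 against 3 allows. When no filter was applied, limma's adjusted p was 0.810 for each.

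LGALS9, CD80 and HHLA2 were at the edge of detection. LGALS9 (ENSG00000168961.16, chromosome 17, 27629798 to 27649560, plus strand) had 1 read in S40 of NRP2-high and 1 read in S37 of NRP2-low. It has near-identical copies, LGALS9B and LGALS9C, so how reads of these genes were divided is uncertain. The LGALS9 exons also share 294 bases, 5.1% of their length, with the protein coding gene AC015688.4 on the same strand. CD80 (ENSG00000121594.11, chromosome 3, 119524293 to 119559602, minus strand) had 1 read, in S38 of NRP2-high. Its exons share 798 bases, 24.9% of their length, with TIMMDC1 on the other strand, which was at 86.2 to 108 TPM, and without known strandedness that read cannot be assigned. HHLA2 (ENSG00000114455.13) had 1 read, in S40 of NRP2-high. For CD80 and HHLA2, 0 of 71415752 reads in NRP2-low cells has a 95% exact Poisson upper limit of 0.0517 RPM (3 reads would be 0.0420 RPM), and a difference between the groups was not detectable at this depth.

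**Figure D4:**
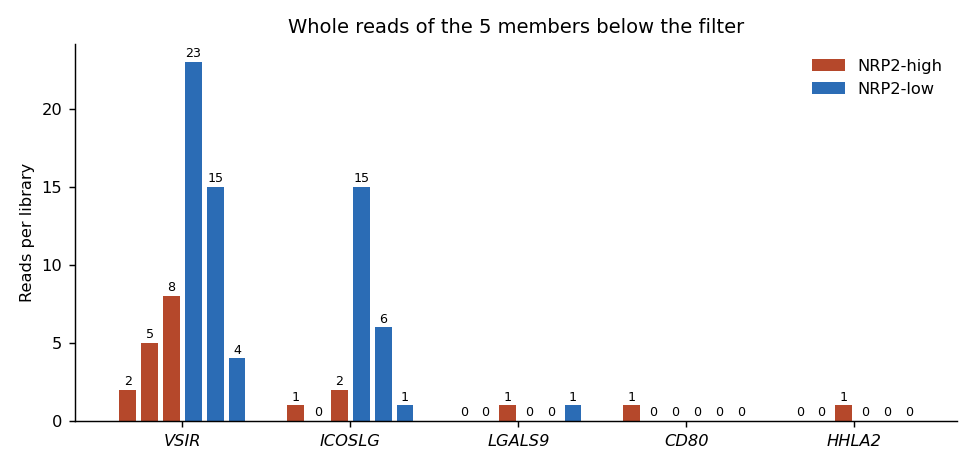
Whole reads per library (y axis, from 0) of the 5 members below 1 TPM, with S38, S39 and S40 of NRP2-high left of S35, S36 and S37 of NRP2-low for each gene. VSIR and ICOSLG have their most reads in S35 (23 and 15), and LGALS9, CD80 and HHLA2 have 0 or 1 read in every library.

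Among 7 other B7 or B7-like ligands 3 were tested and 0 passed, with a median log2 fold change of 0.29. NCR3LG1 (B7-H6), a ligand of the NK cell receptor NCR3, averaged 27.9 ± 4.64 TPM in NRP2-high, against 34.2 ± 5.36 TPM in NRP2-low cells (SD, n = 3 each, log2 fold change -0.29). It and CD276 were thus the B7 ligands with the highest levels. The butyrophilin gene BTN2A2 had a log2 fold change of 0.29. CD274, which encodes PD-L1 and is the subject of the series title, was lower in level, averaging 4.08 ± 3.68 TPM in NRP2-high, against 1.74 ± 1.65 TPM in NRP2-low cells (SD, n = 3 each, log2 fold change 0.81, limma adjusted p = 0.874). With a library left out the CD274 value was 0.25 (without S38, which held 8.28 TPM) to 1.27 (without S35). PDCD1LG2 (PD-L2, named after its values were seen) had 0 to 27 reads per library. Of 10 receptors and partners of B7 proteins, 1 was tested: RGMB, a repulsive guidance molecule and partner of PD-L2, averaging 52.5 ± 19.8 TPM in NRP2-high, against 46.0 ± 14.0 TPM in NRP2-low cells (SD, n = 3 each, log2 fold change 0.17, limma adjusted p = 0.927). The RGMB value turned to -0.11 without S38 and to -0.068 without S37, and was 0.40 without S40. The others with reads, among them SELPLG, the P-selectin ligand gene (0 to 9 reads per library), were below the filter. Of 10 further butyrophilins 6 were tested and 0 passed (median 0.15), from ERMAP at 0.34 to BTNL9 at -0.30, with BTN2A1 (0.05) and BTN3A2 (0.21) the highest in level.

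In the CD47 axis 10 of 12 genes were tested, and 1 passed, SIRPB1, which fell. SIRPB1 encodes a relative of SIRPA that signals through DAP12 and is not known to bind CD47. NRP2-high libraries had 2.82 TPM (S38), 2.21 TPM (S39) and 1.63 TPM (S40), and NRP2-low libraries had 27.2 TPM (S35), 25.2 TPM (S36) and 12.2 TPM (S37). The groups did not overlap, as for 12.0% of all tested genes. On the log2 scale the difference was -2.75 (SE 0.32) with a limma adjusted p of 0.00674. It kept the call with any library left out (adjusted p up to 0.0463) and lost it when no filter was applied (0.0513). SIRPA, SIRPB1 and SIRPG are similar in sequence, so the division of reads between them is uncertain. SIRPG (named after its values were seen) was below the filter, with 3, 1 and 0 reads in NRP2-high, against 23, 8 and 5 reads in NRP2-low libraries. SIRPA, the receptor of CD47 (named after its values were seen), had 103 TPM, 119 TPM and 189 TPM in NRP2-high, against 165 TPM, 212 TPM and 172 TPM in NRP2-low libraries (log2 fold change -0.46, limma adjusted p = 0.821), with -0.28 without S38 and -0.71 without S40. CD47 and its receptor were thus both expressed in all 6 libraries. THBS1, a secreted ligand of CD47, had 52.7 TPM, 116 TPM and 393 TPM in NRP2-high, against 28.1 TPM, 43.3 TPM and 33.7 TPM in NRP2-low libraries. These groups did not overlap, but the log2 fold change of 1.93 (SE 0.60) did not pass (limma adjusted p = 0.409), and it was 1.16 without S40. The median of the list was 0.23, and it turned to -0.014 without S37.

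In the adenosine pathway 7 of 24 genes were tested and 0 passed, with a median log2 fold change of 0.14, which turned to -0.052 without S37. The step before CD73, from ATP and ADP to AMP, is carried out by ENTPD1 (CD39) and ENPP1, among others. ENTPD1 had 1 to 14 reads per library (0.0257 to 0.365 TPM), and ENPP1 averaged 6.21 ± 1.84 TPM in NRP2-high, against 3.85 ± 1.15 TPM in NRP2-low cells (SD, n = 3 each, log2 fold change 0.56, limma adjusted p = 0.800). Among adenosine receptors ADORA2B was at 13.3 to 21.9 TPM, while ADORA1 and ADORA2A had 1 to 5 reads per library. The adenosine kinase gene ADK averaged 100.5 ± 5.97 TPM in NRP2-high, against 119 ± 16.7 TPM in NRP2-low cells (SD, n = 3 each, log2 fold change -0.24). Its groups did not overlap, as for 12.0% of all tested genes, and it did not pass (limma adjusted p = 0.873). The nucleoside transporter gene SLC29A1 had a log2 fold change of 0.04. NT5E, at 72.5 to 235 TPM, was therefore above ENTPD1 and ENPP1 in TPM in every library. ENTPD1 and the adenosine receptors were named after their values were seen.

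Of 17 galectins and partners of galectin-9, 5 were tested and 0 passed. Their median log2 fold change was 0.03, and it turned to -0.043 without S37, to -0.086 with median log ratio scaling, to -0.067 by limma-voom and to -0.056 with mitochondrial genes taken out. LGALS1 averaged 794 ± 161 TPM in NRP2-high, against 589 ± 115 TPM in NRP2-low cells (SD, n = 3 each, log2 fold change 0.43, limma adjusted p = 0.802), the highest of the galectins tested. P4HB, a protein disulfide isomerase that binds galectin-9, had a log2 fold change of 0.13. LGALS3BP, which encodes a galectin-3 binding protein, had 43.8 TPM, 47.7 TPM and 48.9 TPM in NRP2-high, against 87.6 TPM, 81.3 TPM and 55.5 TPM in NRP2-low libraries (log2 fold change -0.64, limma adjusted p = 0.409). The groups did not overlap, as for 12.0% of all tested genes. LGALS3BP passed without S37 (limma adjusted p = 0.0479), with median log ratio scaling (0.0434) and by limma-voom (0.0469). It did not pass with mitochondrially encoded genes taken out (limma adjusted p = 0.0764). HAVCR2, the galectin-9 receptor (named after its values were seen), had 1 to 4 reads per library. Of 16 other immune ligands and enzymes and complement regulators 8 were tested and 0 passed (median 0.23), among them CD59 (0.12), CD46 (0.17), CD24 (0.62) and CD58, the adhesion and costimulatory ligand of CD2 (-0.31).

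**Figure D5:**
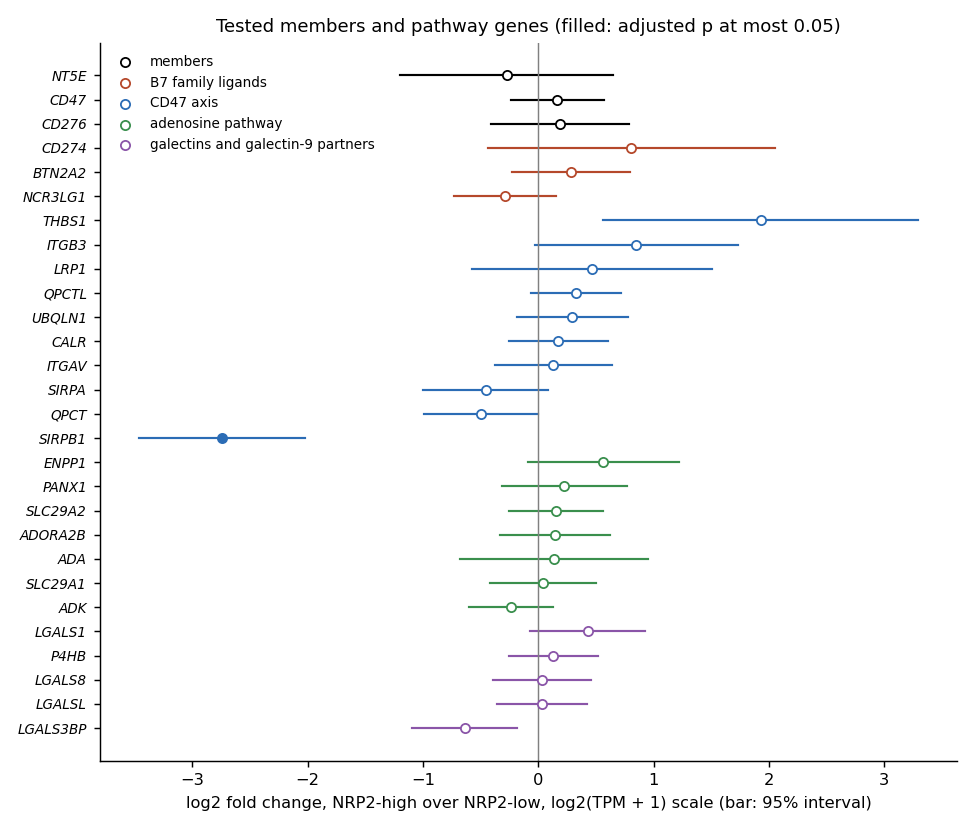
Log2 fold change, NRP2-high over NRP2-low, on the log2(TPM + 1) scale (x axis) with its 95% interval for the 3 tested members and the tested genes of 4 pathway lists. The intervals of NT5E, CD47 and CD276 all include 0, and the 1 filled point is SIRPB1 at -2.75.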

How the data were processed

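RNA of 6 PC3 libraries, 3 NRP2-high and 3 NRP2-low, was measured by sequencing. The authors deposited TPM values for 27958 genes. The build was hg38 (GRCh38.p12), and the tools included DESeq2 1.20.0 and featureCounts 1.5.2, per the submitters' processing notes. The aligner, the strand setting and what each tool did were not given in the sources used here. The gene lengths deposited with the TPM values turned 100% of the non-zero values of each library into whole reads (tolerance 0.001), which gave the depths. All gene identifiers and starts matched GENCODE release 29.

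Columns were tied to groups by the group word in their names. RNA was taken at different passages, per the labels' protocols, which do not tie a passage to a library or name separate sorts. The p-values therefore cover just the variation among these 6 samples, and that variation may be technical.

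Genes with at least 1 TPM in at least 3 libraries were fitted as log2(TPM + 1) with limma 3.58.1 in R 4.3.3 (group as the only term, variance trend, two-sided, Benjamini-Hochberg over all 15214 genes). Fold changes are on that scale, which understates changes of low genes. The fit was also run on simulated reads, and no result of that run is used here. Single values were compared by exact permutation (scipy 1.17.1).

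Every member is named. From each list, up to 4 called genes, otherwise the 2 highest in level, and the tested genes with the highest and the lowest fold change are named. Members and lists were chosen with earlier results of these data known. Alternatives were another pseudocount, no filter, no variance trend, scaling by the median log ratio, removal of mitochondrially encoded genes, limma-voom and leaving out each library. Some marker genes of the line are not reported here.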

Additional observations from a re-analysis of the deposited data

How the results depend on the processing

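No call was made for NT5E, CD47 or CD276 under any of the 12 alternatives. Leaving out a library in turn gave log2 fold changes from -0.60 to 0.24 for NT5E (0.24 without S40), from 0.091 to 0.30 for CD47 and from -0.093 to 0.37 for CD276 (-0.093 without S37). Their median ran from -0.093 (without S37) to 0.30, that of the CD47 axis from -0.014 (without S37) to 0.33, that of butyrophilins from -0.0079 (without S37) to 0.20, that of the adenosine pathway from -0.052 (without S37) to 0.25 and that of galectins and partners from -0.043 (without S37) to 0.17 (without S36). With median log ratio scaling the values were -0.40 for NT5E, 0.05 for CD47 and 0.07 for CD276. When no filter was applied 29 genes were higher and 45 lower in NRP2-high cells, and 0 genes of the CD47 axis passed. By limma-voom 88 were higher and 112 lower. With a library left out 15 to 44 were higher (15 without S36 and without S39) and 28 to 59 lower. Among galectins and partners 1 gene passed by limma-voom, 1 with median log ratio scaling and 0 to 1 with a library left out. The difference in mean TPM, NRP2-high minus NRP2-low, ran from -0.37 to -0.15 for VSIR and from -0.14 to -0.046 for ICOSLG with a library left out. The causes of these changes were not tested. No paired analysis was possible because the columns carry no replicate number of the labels. Depth limits VSIR, ICOSLG, LGALS9, CD80 and HHLA2, each with under 60 reads in all.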
